A study of Mus musculus with 5 samples.

Results

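The genes described here are 35 regulators and executors of apoptosis, chosen by name for their known roles: the BCL2 family, the apoptosome and caspases, the inhibitor of apoptosis proteins, the proteins that leave mitochondria in dying cells, and a death receptor with its adaptors. Of the 35 genes, 33 had at least 1 probe set annotated to them alone, and these 33 genes are followed below. Bax and Ripk1 were not analysed here, since no probe set carries their names in the annotation table used. The 33 genes were represented by 96 of the 45101 probe sets of the array, and 18194 genes were measured in all. The brightest probe set of a gene, by the mean over the arrays, stands for it, and the other 63 probe sets are described at the end.

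The study asked which mRNAs are bound by AUF1 (gene Hnrnpd), a protein that binds AU-rich elements in mRNA 3'UTRs. It used NIH/3T3 cells, an established line of mouse embryonic fibroblasts, infected with retroviruses that carry pBSwitch and pSLHGC-MYC-AUF1 p42. Mifepristone switches on a myc-tagged p42 isoform of AUF1 in these cells. The infected cells were selected with blasticidin in medium that also held 1 nM mifepristone, so the cells labelled uninduced had met it before the experiment. By Western blot, the paper reports no background expression from these vectors in cells not yet induced. RNA was recovered with anti-c-myc beads (RNP-IP, immunoprecipitation of ribonucleoprotein particles) from cells given 1 nM mifepristone for 24 h (induced, 2 arrays) and from the same cells without mifepristone (uninduced, 2 arrays), and total RNA of the myc-AUF1 p42 cells was hybridised to 1 array. The sources used here do not give whether the cells behind the total RNA had been induced. All groups carry both vectors, and the cells are described as infected and selected cells, with no clone stated. Since the RNP-IPs have no matched total RNA of each condition, a larger precipitated share of an mRNA and a higher level of it in the cells cannot be told apart. In bulk samples of this kind, fewer cells with a transcript and less of it per cell cannot be told apart either.

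The gene for AUF1 gave a lower signal on the arrays labelled induced than on the 3 other arrays. In an RNP-IP this signal is the mRNA recovered, relative to the RNA labelled, not a measure of how far AUF1 was induced. The brightest Hnrnpd probe set gave log2 signals of 6.72 and 7.39 on the arrays labelled induced, 11.35 and 11.85 on the arrays labelled uninduced and 10.60 for total RNA. It was 4.21 log2 units lower in the RNP-IPs labelled induced than in the 3 other arrays (SE 0.46, limma adjusted p = 0.114), and a second Hnrnpd probe set differed in the same direction, by -4.32. Whether these probes match the transcript of the vector was not determined here, so every direction below is that of the labels. All 10 fibroblast markers examined had log2 signals between 7.43 and 13.35 on every array, and 10 of 12 markers of other cell types lay under log2 5 on every array. The exceptions were the epithelial gene Epcam, at 6.66 to 6.99, and the T cell gene Cd3e, at 4.68 to 5.16. The Gapdh control probe set nearest the 5' end, which is low where labelled RNA is short, read 8.18 and 4.24 on the arrays labelled induced, 3.65 and 7.81 on the arrays labelled uninduced and 6.93 for total RNA, so that 1 array of each RNP-IP group was low. The Gapdh control probe set nearest the 3' end was low on the same arrays. It read 11.90 and 9.71 (induced), 9.70 and 12.11 (uninduced) and 12.32 (total RNA). The 5' value alone therefore does not separate short RNA from less Gapdh mRNA. The counts from the 3 arrays with a high value alone, and from pairing arrays of like value, are given with the alternatives at the end.

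Apoptosis is run by caspases, proteases that cut one another and then the contents of the cell. In the mitochondrial route, BH3-only proteins engage the pro-survival BCL2 proteins or the effectors BAX and BAK, which open the outer mitochondrial membrane; released cytochrome c then assembles APAF1 and caspase-9 into the apoptosome. In the death receptor route, ligand-bound FAS gathers FADD and caspase-8, and CFLAR competes with caspase-8 there. Inhibitor of apoptosis proteins hold active caspases or their upstream complexes in check. Several of these mRNAs, BCL2 among them, are known to carry AU-rich elements.

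The RNP-IPs labelled induced were compared first with the 3 control arrays together (both uninduced RNP-IPs and total RNA), which is the comparison the study used, taking as called a gene that differed 3-fold or more at an adjusted p below 0.5, the study's threshold. With limma, 0 of the 33 genes were higher and 1, Apaf1, was lower. Among all genes measured, 1.32 percent were called higher and 2.36 percent lower, so the count for the apoptosis genes was near the background. With a mean log2 signal of at least 6, 0 of 27 apoptosis genes were called higher and 1 lower. Of all 6401 genes as bright, 174 were called higher and 370 lower. At an unadjusted p under 0.05, 9 of the 33 genes passed, against 13.4 percent of all genes. Among the 27 of them with a mean log2 signal of at least 6 it was 8 (29.6 percent), near the 25.7 percent of all genes as bright. At an adjusted p under 0.05 none passed, the smallest adjusted p being 0.078 for Bcl2. This threshold is lenient, so the values of each array are given with each call.

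The log2 differences of the 33 genes lay between -1.63 and 1.54, 16 above 0 and 17 below. Their median was -0.03, against 0.00 over all genes. The median size of the difference, without its sign, was 0.38 over the 33 genes and 0.17 over all genes, but apoptosis genes were brighter than most: among the 27 with a mean log2 signal of at least 6 it was 0.46, against 0.57 over the 6401 genes as bright. At a fold of at least 2, 3 genes were higher (Casp9, Casp6 and Pmaip1) and 5 lower (Apaf1, Cflar, Bcl2, Endog and Bok), where 4.18 percent of all genes were higher and 7.47 percent lower. Among genes with a mean log2 signal of at least 6 these shares were 7.41 and 18.5 percent of the apoptosis genes and 9.30 and 17.5 percent of all genes. The median difference between replicates over the 33 genes was 0.32 between the arrays labelled induced and 0.39 between those labelled uninduced.

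For 13 of the 33 genes both RNP-IPs labelled induced lay on the same side of all 3 controls, where 25.4 percent of all genes did so, and again brightness mattered. Among genes with a mean log2 signal of at least 6, 16.3 percent had both induced values above all controls and 25.1 percent both below. Of the 27 apoptosis genes as bright as that, 4 were above (14.8 percent) and 6 below (22.2 percent), so these shares were near the background. The 6 genes below were Bcl2, Bad, Apaf1, Cflar, Xiap and Tradd. The 7 above were Casp9, Casp6, Bid and Cycs, together with Pmaip1, Bak1 and Birc3, which had signals under log2 5 on all arrays and are treated here as near background.

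**Figure D1:**
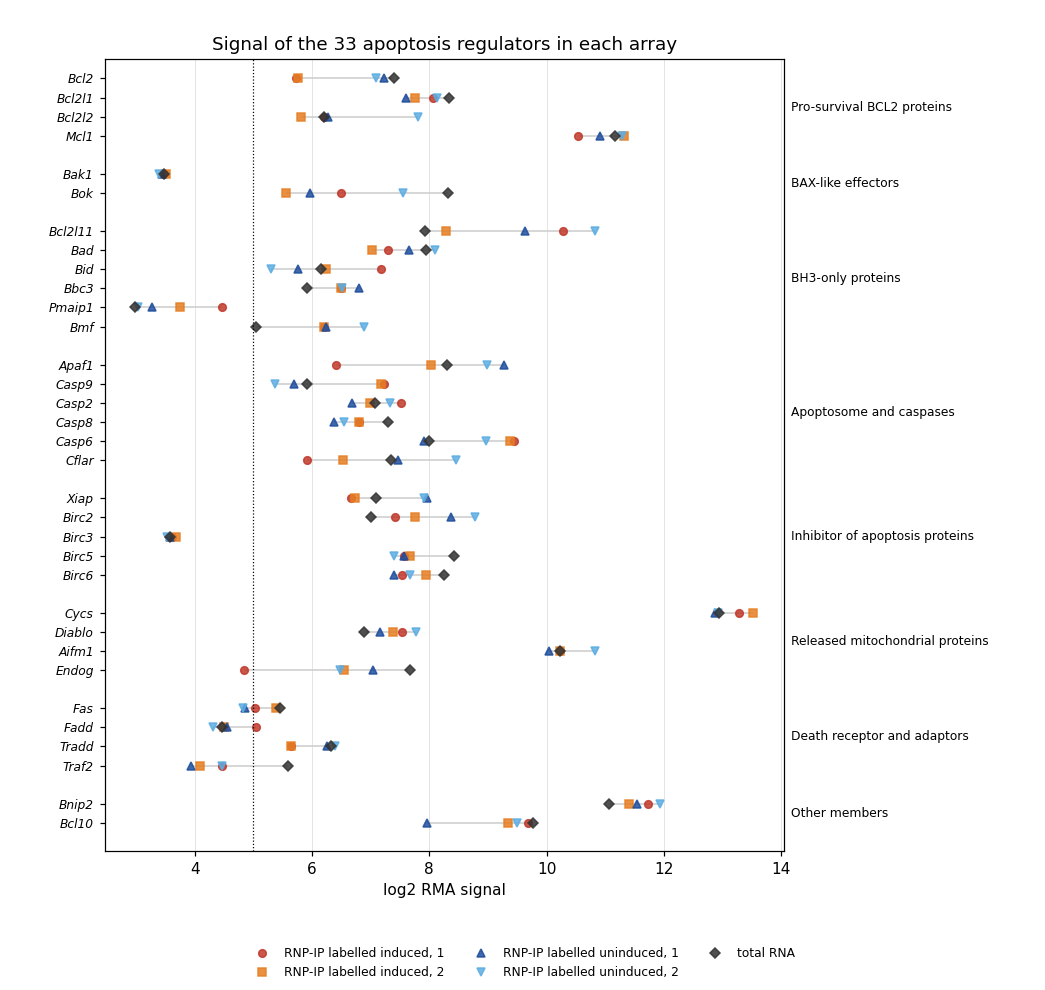
Log2 signal (RMA, horizontal axis) of the brightest probe set of each of the 33 apoptosis genes, 1 point per array, with the 2 RNP-IPs labelled induced, the 2 labelled uninduced and total RNA in different markers and the genes ordered by role. The dotted line marks log2 5; Bak1, Birc3 and Pmaip1 lie below it on every array, and in Bcl2, Bad, Apaf1, Cflar, Xiap and Tradd both points labelled induced lie left of the 3 others.

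Among the apoptosome and caspase genes, Casp9 was higher and Apaf1 and Cflar were lower in the RNP-IPs labelled induced, by at least 1 of the comparisons. Casp9 encodes caspase-9, the initiator protease of the apoptosome. Its probe set gave log2 signals of 7.22 and 7.17 on the arrays labelled induced, 5.69 and 5.37 on the arrays labelled uninduced and 5.91 for total RNA. The induced values lay close together and 1.26 or more log2 units above every control. Against the 3 controls Casp9 was 2.91-fold higher (log2 1.54, SE 0.18, limma adjusted p = 0.118), just under the fold required, and against the uninduced RNP-IPs alone it was 3.17-fold higher (log2 1.67, SE 0.14, adjusted p = 0.149). In the comparison with the uninduced RNP-IPs alone, 1.38 percent of all genes were called higher and 2.65 percent lower. Of the 33 genes 1 was called in each direction, Casp9 higher and Cflar lower. Both are among the 27 with a mean log2 signal of at least 6. Of all 6401 genes as bright, 188 were called higher and 407 lower. At an unadjusted p under 0.05 there were 9 of the 33 genes (27.3 percent), against 14.3 percent of all genes. Among the 27 with a mean log2 signal of at least 6 it was 9 (33.3 percent), against 27.7 percent of all genes as bright. The Casp9 call was lost without uninduced replicate 2, where the difference was 1.51.

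Apaf1 encodes the scaffold that cytochrome c turns into the apoptosome around caspase-9. Its signals were 6.42 and 8.04 on the arrays labelled induced, 9.26 and 8.99 on the arrays labelled uninduced and 8.31 for total RNA. Both induced arrays were below all controls, but they differed from each other by more than the nearer of them differed from total RNA. Apaf1 was 3.09-fold lower than the 3 controls (log2 -1.63, SE 0.62, limma adjusted p = 0.499), at the edge of the threshold. Without induced replicate 1 the difference was -0.82 and the call was lost, and without either uninduced replicate it was -1.42 and -1.56, neither of them called. Against the uninduced RNP-IPs alone the fold was larger, 3.73, but the adjusted p was 0.507.

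Cflar encodes FLIP, a caspase-8 relative without protease activity that restrains death receptor signalling. It read 5.91 and 6.52 on the arrays labelled induced, 7.46 and 8.45 on the arrays labelled uninduced and 7.35 for total RNA. Every induced value was below every control value. The difference was 2.90-fold against the 3 controls (log2 -1.54, SE 0.44, limma adjusted p = 0.355) and 3.34-fold against the uninduced RNP-IPs (log2 -1.74, SE 0.49, adjusted p = 0.396), and only the second passed the fold required. The call against the uninduced RNP-IPs was lost without induced replicate 1 (-1.44), induced replicate 2 (-2.04) or uninduced replicate 2 (-1.24).

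Casp6 encodes an executioner caspase that cuts nuclear lamins. Its signals were 9.43 and 9.38 on the arrays labelled induced, 7.91 and 8.96 on the arrays labelled uninduced and 7.99 for total RNA. The induced values lay above all controls, though uninduced replicate 2 came within 0.42 of them, and the difference of 2.18-fold (log2 1.12, SE 0.38, limma adjusted p = 0.436) did not reach the fold required. Casp8, the initiator caspase of the death receptor route, and Casp2, an initiator caspase linked to DNA damage, differed from the controls by 0.07 and 0.22 on the log2 scale and did not pass the test. Both Casp8 values labelled induced were 6.81, between the uninduced RNP-IPs (6.37 and 6.55) and total RNA (7.29).

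**Figure D2:**
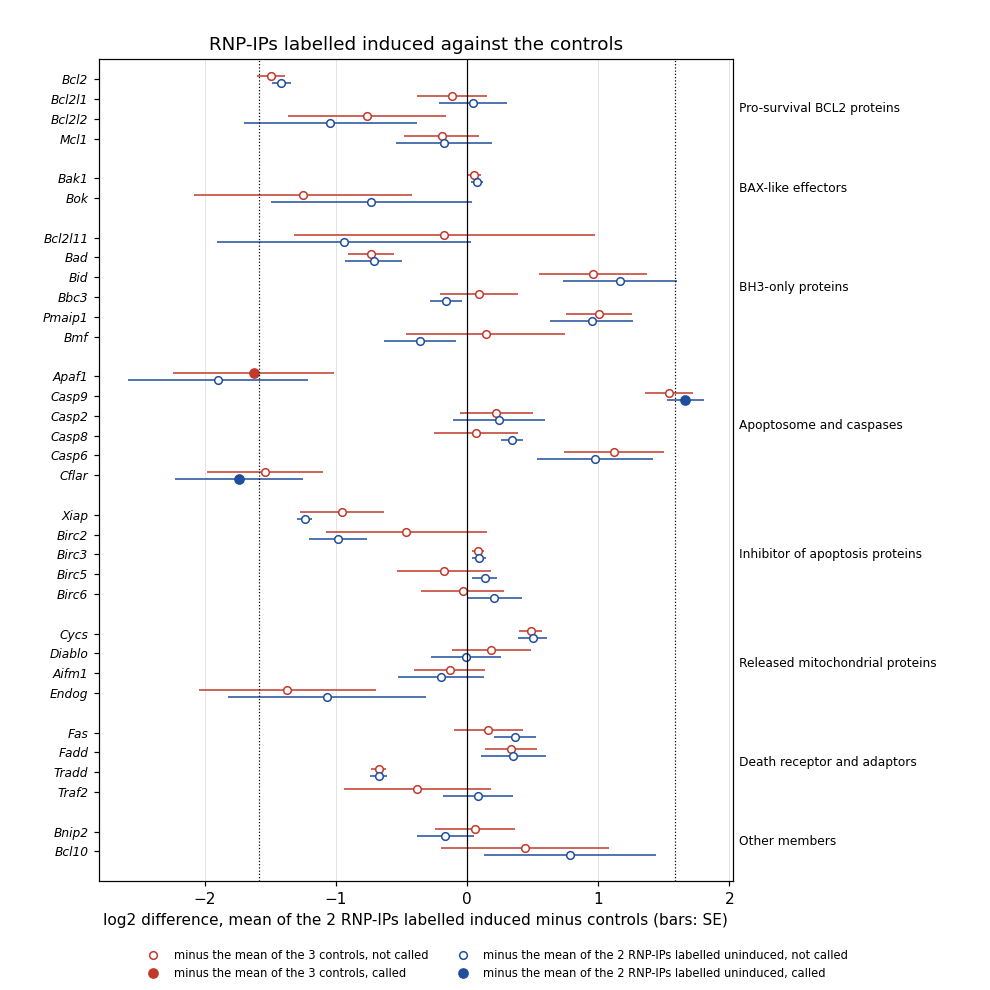
Log2 difference (horizontal axis, with bars of 1 SE to either side from limma) of each apoptosis gene between the RNP-IPs labelled induced and the 3 controls, and between them and the uninduced RNP-IPs alone, grouped by role, with filled points for genes called. The dotted lines mark a 3-fold difference, log2 1.58 to either side: Apaf1 passes the lower line at -1.63 against the controls, and Casp9 (1.67), Cflar (-1.74) and Apaf1 (-1.90) pass a line against the uninduced RNP-IPs.

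No pro-survival gene was called against the 3 controls or against the uninduced RNP-IPs. Bcl2, the founding member of the family, which holds BH3-only proteins and effectors at the mitochondrion, had the smallest adjusted p of all 33 genes. It read 5.72 and 5.76 on the arrays labelled induced, 7.22 and 7.09 on the arrays labelled uninduced and 7.40 for total RNA. Replicates agreed within 0.13 log2 units and the groups were well apart. The difference from the 3 controls was 2.82-fold (log2 -1.50, SE 0.11, limma adjusted p = 0.078) and that from the uninduced RNP-IPs 2.67-fold (log2 -1.42, SE 0.07, adjusted p = 0.118), both short of a 3-fold difference, so Bcl2 was called in neither.

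Bcl2l1, which encodes the pro-survival BCL-XL, read 8.07 and 7.75 on the arrays labelled induced, 7.60 and 8.12 on the arrays labelled uninduced and 8.34 for total RNA. Its groups overlapped, and the difference of -0.11 did not pass the test. Bcl2l2, which encodes the pro-survival BCL-W, differed by -0.76 (SE 0.60, limma adjusted p = 0.706), with 1 high value, 7.81 in uninduced replicate 2, and the other 4 arrays between 5.81 and 6.28. Mcl1, a pro-survival protein of short half-life, was bright on all arrays (10.53 to 11.32), with overlapping groups and a difference of -0.19.

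Of the effectors, Bok, a BAX-like protein, read 6.50 and 5.55 on the arrays labelled induced, 5.97 and 7.54 on the arrays labelled uninduced and 8.32 for total RNA. The RNP-IP groups overlapped and total RNA was the highest array. Its difference of -1.25 from the 3 controls had an SE of 0.83 and did not pass the test. Bak1, which encodes BAK, lay between 3.40 and 3.51 on all arrays, near background, so its position above the controls is not a measured difference in level.

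No BH3-only gene was called against the 3 controls or against the uninduced RNP-IPs. Bad, a sensitiser that binds BCL2 and BCL-XL, read 7.30 and 7.02 on the arrays labelled induced, 7.66 and 8.09 on the arrays labelled uninduced and 7.94 for total RNA. Its induced values were below all controls, by 1.66-fold on average (log2 -0.73, SE 0.17, limma adjusted p = 0.274). Bid, which caspase-8 cuts to link the death receptor to the mitochondrial route, lay the other way, with 7.17 and 6.23 on the arrays labelled induced, 5.77 and 5.30 on the arrays labelled uninduced and 6.16 for total RNA. The lower of its induced values exceeded total RNA by 0.07, and the difference of 1.94-fold had an adjusted p of 0.577.

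Bcl2l11, which encodes the activator BIM, spread widely within groups: 10.28 and 8.29 on the arrays labelled induced, 9.63 and 10.82 on the arrays labelled uninduced, and 7.92 for total RNA. The replicates labelled induced were 1.99 log2 units apart, and the difference of -0.17 from the controls (SE 1.15) could not be resolved. Pmaip1, which encodes NOXA, read 4.46 and 3.75 on the arrays labelled induced against 2.99 to 3.27 in the controls, near background on every array. Bbc3, which encodes the p53 target PUMA, differed by 0.09, and Bmf, a BH3-only protein linked to the cytoskeleton, by 0.14, and neither passed the test.

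Among the inhibitor of apoptosis genes, no gene was called in either comparison. Xiap, a direct inhibitor of caspases, read 6.66 and 6.73 on the arrays labelled induced, 7.96 and 7.91 on the arrays labelled uninduced and 7.09 for total RNA at its brightest probe set. Replicates agreed within 0.07, and total RNA lay between the RNP-IP groups. Against the uninduced RNP-IPs it was 2.36-fold lower (log2 -1.24, SE 0.06, limma adjusted p = 0.118) and against the 3 controls 1.94-fold lower (log2 -0.96, SE 0.32, adjusted p = 0.429), both under the fold required. A second Xiap probe set differed the other way, as given below.

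Birc2, which encodes cIAP1, a ubiquitin ligase of the TNF receptor complex, read 7.42 and 7.75 on the arrays labelled induced, 8.37 and 8.78 on the arrays labelled uninduced and 7.00 for total RNA. The uninduced RNP-IPs were highest, the induced ones between them and total RNA, and the difference from the uninduced RNP-IPs was -0.99 (SE 0.22, limma adjusted p = 0.321). Birc5, which encodes survivin, needed for chromosome segregation, and Birc6, a very large protein of the family, differed from the controls by -0.18 and -0.03. Birc3, which encodes cIAP2, lay between 3.53 and 3.68 on all arrays, near background.

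Of the mitochondrial proteins released in apoptosis, Cycs was above the controls at every array. Cycs encodes cytochrome c, the electron carrier that activates APAF1 once in the cytosol. It read 13.28 and 13.52 on the arrays labelled induced, 12.87 and 12.92 on the arrays labelled uninduced and 12.94 for total RNA. The groups did not overlap, and the difference was 1.40-fold (log2 0.48, SE 0.09, limma adjusted p = 0.210), well under the fold required. Endog, which encodes the nuclease endonuclease G, read 4.84 and 6.55 on the arrays labelled induced, 7.05 and 6.48 on the arrays labelled uninduced and 7.67 for total RNA. Its RNP-IP groups overlapped, and the difference of -1.37 had an SE of 0.68 (adjusted p = 0.643). Diablo, which encodes SMAC, an antagonist of inhibitor of apoptosis proteins, and Aifm1, which encodes the apoptosis-inducing factor of mitochondria, differed by 0.18 and -0.13 and did not pass the test.

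Among the death receptor genes, Tradd was below all controls by a small and even margin. Tradd encodes the adaptor of the TNF receptor. It read 5.65 on both arrays labelled induced, 6.26 and 6.38 on the arrays labelled uninduced and 6.32 for total RNA. The control arrays lay within 0.12 of one another, and the difference was 1.60-fold (log2 -0.68, SE 0.06, limma adjusted p = 0.0923), under the fold required. Fas, the receptor, lay between 4.82 and 5.46, Fadd, its adaptor, between 4.31 and 5.05, and Traf2, a ubiquitin ligase of the TNF receptor complex, between 3.94 and 5.58; all were dim, and their differences of 0.16, 0.34 and -0.38 did not pass the test.

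Bnip2, named for its interaction with BCL2, and Bcl10, a signalling adaptor of the NF-kB pathway, were bright genes whose groups overlapped. Bnip2 read 11.73 and 11.41 on the arrays labelled induced, 11.54 and 11.93 on the arrays labelled uninduced and 11.06 for total RNA. Bcl10 read 9.69 and 9.34 on the arrays labelled induced, 7.97 and 9.49 on the arrays labelled uninduced and 9.76 for total RNA, so that uninduced replicate 1 stood below the other arrays. Neither passed the test, with differences of 0.06 and 0.44 from the controls.

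By role, the median log2 difference from the 3 controls was -0.48 over the 4 pro-survival genes, -0.60 over the 2 effectors, 0.12 over the 6 BH3-only genes, 0.15 over the 6 apoptosome and caspase genes, -0.18 over the 5 inhibitor of apoptosis genes, 0.03 over the 4 mitochondrial genes, -0.11 over the 4 death receptor genes and 0.25 over Bnip2 and Bcl10. These medians cover few genes each and include Bak1, Pmaip1 and Birc3, which are near background. That of the effectors comes from Bok and Bak1 alone. Several include genes whose probe sets over log2 5 differ in sign. These are Bcl2l2 and Mcl1 (pro-survival), Bcl2l11 and Bmf (BH3-only), Xiap and Birc6 (inhibitor of apoptosis), and Bnip2 and Bcl10. Within the apoptosome and caspase group the differences ran from the lowest (Apaf1) to the highest (Casp9) of all 33.

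Comparing RNP-IPs with total RNA asks what the beads recover relative to the cells. The uninduced RNP-IPs serve as the background of the precipitation, with total RNA measured on a single array that limma assumes to vary like the others. Between the uninduced RNP-IPs and total RNA, 0 of the 33 genes were called higher and 0 lower by limma, against 1.26 percent of all genes called higher and 1.36 percent called lower. At an unadjusted p under 0.05 there were 7 (21.2 percent), against 13.0 percent of all genes. Among the 27 with a mean log2 signal of at least 6 it was 6 (22.2 percent), against 20.8 percent of all genes as bright. Between the RNP-IPs labelled induced and total RNA, 0 were called higher and 2 lower, Bcl2 and Bok, against 2.03 percent of all genes called higher and 4.50 percent called lower. Both are among the 27 with a mean log2 signal of at least 6. Of all 6401 genes as bright, 291 were called higher and 631 lower. At an unadjusted p under 0.05 there were 10 of the 33 genes (30.3 percent), against 17.3 percent of all genes. Among the 27 brighter ones it was 9 (33.3 percent), against 28.7 percent of all genes as bright. Both comparisons share the total RNA array. All 4 RNP-IPs were above total RNA in 7 of the 33 genes and below it in 10, where all genes gave 20.0 percent above and 21.3 percent below.

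Bcl2 was 3.16-fold lower in the RNP-IPs labelled induced than in total RNA (log2 -1.66, SE 0.09, limma adjusted p = 0.103), while the uninduced RNP-IPs differed from total RNA by -0.24 (SE 0.09, adjusted p = 0.519). Bok was 4.90-fold lower in the RNP-IPs labelled induced than in total RNA (log2 -2.29, SE 0.94, adjusted p = 0.472), and the uninduced RNP-IPs stood at -1.56 (SE 0.94, adjusted p = 0.739). The single total RNA value of 8.32 enters both Bok differences, and without induced replicate 1 the first was -2.76 and no longer called.

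The 7 genes above total RNA on all 4 RNP-IP arrays were Bcl2l11, Bbc3, Pmaip1, Bmf, Birc2, Diablo and Bnip2. Bcl2l11 showed the largest difference, 4.94-fold between the uninduced RNP-IPs and total RNA (log2 2.30, SE 1.19, limma adjusted p = 0.672), with the spread between replicates given above. Birc2 was 2.97-fold above total RNA in the uninduced RNP-IPs (log2 1.57, SE 0.27, adjusted p = 0.298), just under the fold required. Bmf read 6.20 on both arrays labelled induced, 6.23 and 6.89 on the arrays labelled uninduced and 5.05 for total RNA, and was 2.85-fold above total RNA in the uninduced RNP-IPs (log2 1.51, SE 0.34, adjusted p = 0.357). Bbc3 read 6.50 on both arrays labelled induced, 6.80 and 6.52 on the arrays labelled uninduced and 5.91 for total RNA. Of the 6 BH3-only genes, 4 were thus above total RNA on all 4 RNP-IP arrays, where 20.0 percent of all genes were. Of these 4, Pmaip1 is near background. A second Bmf probe set read 5.02 and 5.27 on the arrays labelled induced, 5.74 and 5.47 on the arrays labelled uninduced and 5.38 for total RNA. The count covers few genes, rests on 1 total RNA array and was not tested.

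The 10 genes below total RNA on all 4 RNP-IP arrays were Bcl2, Bcl2l1, Bok, Casp8, Birc5, Birc6, Endog, Fas, Traf2 and Bcl10. Birc5 read 7.58 and 7.66 on the arrays labelled induced, 7.57 and 7.40 on the arrays labelled uninduced and 8.41 for total RNA. All 4 RNP-IPs lay within 0.27 of one another, and the uninduced ones stood 1.90-fold under total RNA (log2 -0.93, SE 0.11, limma adjusted p = 0.235). Birc6 read 7.53 and 7.94 on the arrays labelled induced, 7.39 and 7.67 on the arrays labelled uninduced and 8.26 for total RNA. Traf2 was 2.61-fold under total RNA in the uninduced RNP-IPs (log2 -1.39, SE 0.33, adjusted p = 0.376), from dim signals.

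**Figure D3:**
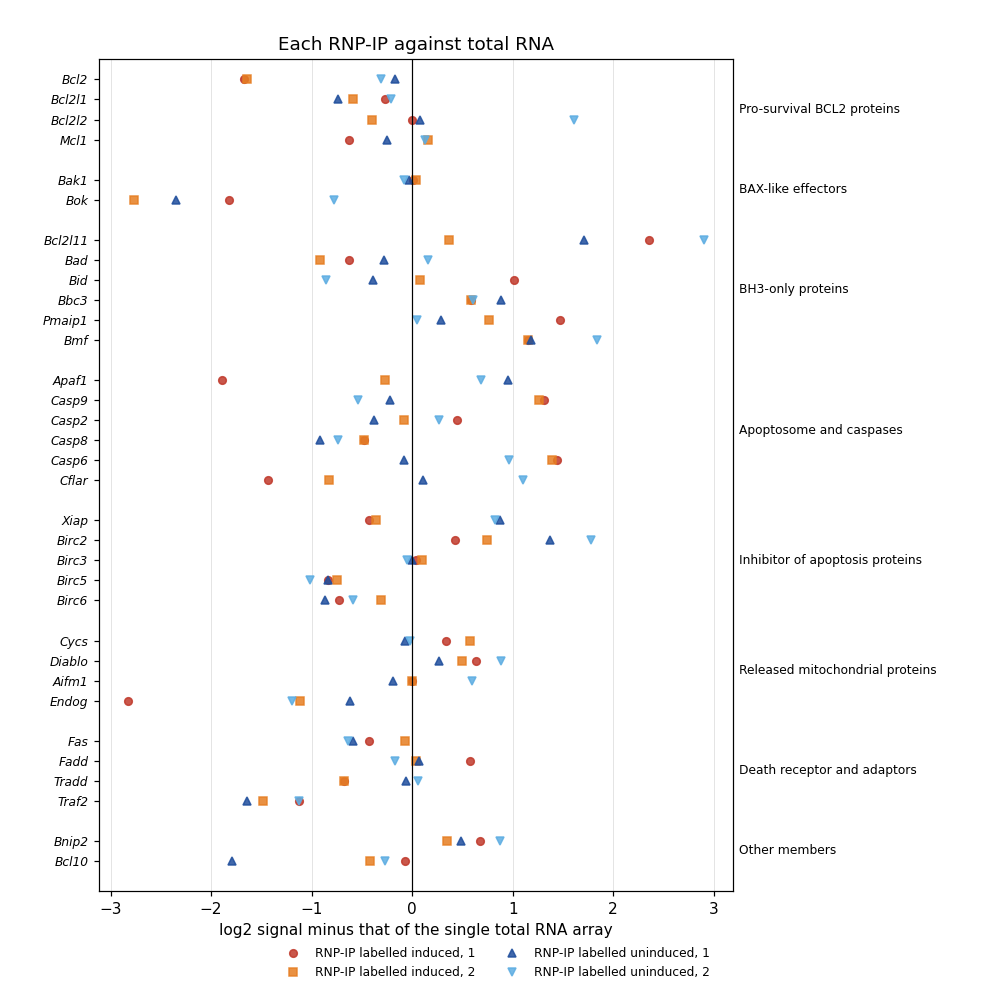
Log2 signal of each of the 4 RNP-IP arrays minus that of the single total RNA array (horizontal axis) for the 33 apoptosis genes, ordered by role, 1 point per RNP-IP. All 4 points lie right of 0 in 7 genes, among them Bcl2l11, Bmf and Birc2, and left of 0 in 10, among them Bok, Endog and Birc5, while in Casp9 the induced points lie right of 0 and the uninduced ones left.

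The other probe sets bear on how far 1 probe set stands for its gene. Of the 33 genes, 23 had more than 1 probe set and 10 a single one, and 44 of the 96 probe sets lay under log2 5 on every array. In 12 genes at least 2 probe sets exceeded log2 5. In 4 of the 12 (Bcl2, Bad, Casp9 and Cycs) these probe sets all differed from the controls in the same direction, and in 8 (Bcl2l2, Mcl1, Bcl2l11, Bmf, Xiap, Birc6, Bnip2 and Bcl10) they did not. The levels of different probe sets are not comparable with each other, and only their differences between arrays are given.

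The 3 Cycs probe sets over log2 5 all lay higher in the RNP-IPs labelled induced. The brightest differed by 0.48, as above, and the second read 13.30 and 12.97 on the arrays labelled induced, 11.59 and 12.03 on the arrays labelled uninduced and 11.42 for total RNA, a difference of 2.74-fold from the controls (log2 1.46, SE 0.23, limma adjusted p = 0.169). The groups were 0.94 or more apart. Against total RNA this probe set was called higher, 3.28-fold (adjusted p = 0.197), which no other of the 96 probe sets was. The remaining Cycs probe set differed by 0.70 (SE 0.16, adjusted p = 0.260).

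The Xiap probe sets differed in opposite directions. Where its brightest probe set differed by -0.96 from the controls, another read 5.03 and 5.83 on the arrays labelled induced, 3.85 and 4.05 on the arrays labelled uninduced and 4.23 for total RNA. Its controls lie under log2 5, near background, so the measured log2 difference of 1.39 (SE 0.29, limma adjusted p = 0.245) stands for at least 1.35-fold, counted from log2 5. It was not called, and with the probe sets differing in sign no direction is given for Xiap as a gene. Mcl1 had 6 probe sets over log2 5, whose differences ran from -0.85 to 0.48. The lowest of them read 9.28 and 9.13 on the arrays labelled induced, 9.93 and 10.03 on the arrays labelled uninduced and 10.21 for total RNA, without overlap of the groups (SE 0.11, adjusted p = 0.135). A second Bcl2l11 probe set read 7.33 and 7.58 on the arrays labelled induced, 8.42 and 8.61 on the arrays labelled uninduced and 6.98 for total RNA, with a tighter spread than the first and the same order of group means. Another, dim Bcl2l11 probe set read 5.44 and 4.63 on the arrays labelled induced and 4.00 to 4.49 on the controls, above them on both arrays, with a difference of 0.86 (SE 0.32, adjusted p = 0.480). A dim Bcl2l2 probe set, opposite to the brightest, read 4.90 and 5.77 on the arrays labelled induced and 4.40 to 4.55 on the controls. Its difference was 0.88 (SE 0.29, limma adjusted p = 0.424), with all controls under log2 5. The second Bcl2 probe set over log2 5 differed by -0.27, and the second Casp9 probe set by 0.19, both far less than the brightest ones.

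**Figure D4:**
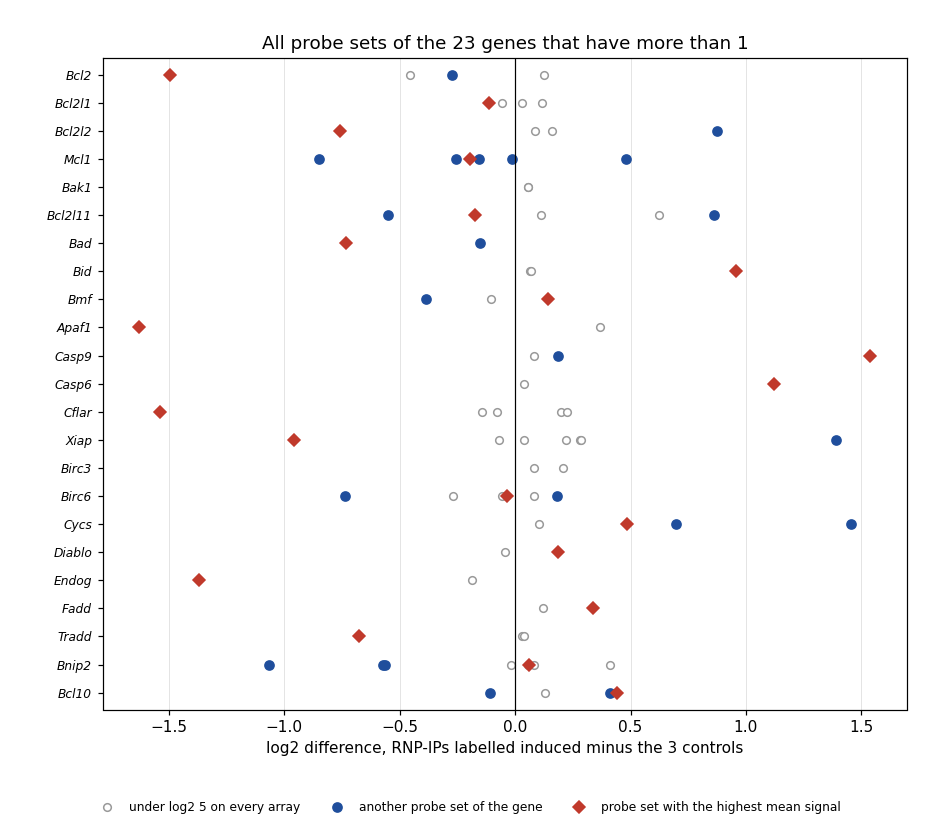
Log2 difference between the RNP-IPs labelled induced and the 3 controls (horizontal axis) for every probe set of the 23 apoptosis genes with more than 1. Diamonds mark the brightest probe set of a gene, filled circles its other probe sets over log2 5 on at least 1 array, and open circles probe sets under log2 5 on every array. The filled points of Cycs all lie to the right of 0, and the filled points of Xiap lie on both sides, at -0.96 and 1.39.

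A wider list of 98 further apoptosis genes, 82 of them measured, was set beside the 33. It was chosen with earlier results of these data known, so its counts are a description and not an independent result. Against the 3 controls limma called 3 of the 82 higher and 0 lower, against 1.32 and 2.36 percent of all genes, with a median difference of 0.04. At an unadjusted p under 0.05 there were 15 (18.3 percent), against 13.4 percent of all genes and 25.7 percent of those with a mean log2 signal of at least 6. The wider list was not split by brightness, so no excess is read from these shares. Tnfrsf21, which encodes death receptor 6, read 7.68 and 7.31 on the arrays labelled induced, 3.53 and 3.71 on the arrays labelled uninduced and 3.97 for total RNA. Its controls were near background on all 3 arrays, so Tnfrsf21 was at least 5.65-fold higher, counted from log2 5, with a measured log2 difference of 3.76 (SE 0.19, adjusted p = 0.0670). Tmbim4, a membrane protein of the BAX inhibitor family, read 10.50 and 10.36 on the arrays labelled induced, 8.31 and 8.80 on the arrays labelled uninduced and 8.84 for total RNA, a 3.43-fold difference (adjusted p = 0.116). Bag4, a co-chaperone that silences death domains, read 8.46 and 9.19 on the arrays labelled induced, 7.56 and 6.81 on the arrays labelled uninduced and 7.27 for total RNA, a 3.06-fold difference (adjusted p = 0.249).

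Against the uninduced RNP-IPs alone, the wider list again had 3 genes called higher, Tnfrsf21, Tmbim4 and Bag4, and 0 lower, against 1.38 and 2.65 percent of all genes. At an unadjusted p under 0.05 there were 16 (19.5 percent), against 14.3 percent of all genes and 27.7 percent of those with a mean log2 signal of at least 6. Between the uninduced RNP-IPs and total RNA, limma called 1 of the 82 higher, Faim, an inhibitor of FAS-induced death, at 5.37-fold (adjusted p = 0.163). It called 2 lower there, Rela, the p65 subunit of NF-kB, at 6.10-fold (adjusted p = 0.387), and Bag6, a chaperone, at 3.52-fold (adjusted p = 0.464). Over all genes 1.26 percent were called higher there and 1.36 percent lower. Between the RNP-IPs labelled induced and total RNA, 3 were higher (Tnfrsf21, Tmbim4 and Faim) and 5 lower (Rela, Htra2, Bag6, Hip1 and Mlkl). Over all genes 2.03 percent were called higher in that comparison and 4.50 percent lower.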

How the data were processed

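5 arrays (Affymetrix Mouse 430 2.0) were analysed. The authors labelled 50 ng of RNA per sample by a 2-cycle protocol and normalized all arrays together by robust multiarray average, and the deposited values are log2 signals per probe set, with no filter and no pooling of replicates. RMA draws the arrays to 1 distribution, with array medians of 3.77 to 3.83, so a shift common to all mRNAs is not visible. The paper reports a lower RNA concentration for the RNP-IPs of control cells. As equal amounts of RNA were labelled, signals are relative to the RNA of each sample. A lower signal in the RNP-IPs labelled induced is therefore not a smaller amount recovered from the cells, which was not measured. Precision is limited by the number of arrays.

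Groups were taken from the sample labels. The RNP-IPs of induced cells are described as independent, and nothing used here says so of the uninduced ones, so p-values measure the spread between these arrays, which may be partly technical. All 45101 probe sets were fitted with limma 3.58.1 (R 4.3.3, lmFit and eBayes) and p-values adjusted over all of them by Benjamini-Hochberg, once with 2 groups (2 induced against 3 controls) and once with 3. Genes were named from GEO's platform annotation (34958 probe sets with 1 gene, 932 with several, 9211 with none). The probe set with the highest mean stood for a gene. Signals under log2 5 on every array were called near background, as presence calls were not used here.

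The genes and lists were chosen with earlier results of these data known, and the text names every gene followed and those of the wider list past the threshold. The fits were tested on simulated data. Alternatives covered the normalization, filter, variance prior, probe set, thresholds, replicate block and left-out arrays.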

Additional observations from a re-analysis of the deposited data

How the results depend on the processing

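With 2 arrays a group, counts of called genes moved with most choices. Against the 3 controls, Casp9 was called higher under cyclic loess (1 gene), and 3 genes were higher at a fold of at least 2. Genes called lower there numbered 0 under cyclic loess, with the mean of a gene's probe sets or at an adjusted p under 0.05, and 3 at a fold of at least 2. Leaving out single arrays gave 0 to 1 higher (Casp9 without total RNA) and 0 to 3 lower (0 without induced replicate 1 or uninduced replicate 2, Apaf1, Cflar and Endog without induced replicate 2, Bok without uninduced replicate 1, Cflar without total RNA). With only the 3 arrays of high 5' Gapdh signal, chosen after seeing the data, 0 were higher and 1, Apaf1, lower, but the induced side is then replicate 1 alone, without which the Apaf1 call is lost, and its spread is assumed from the controls.

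Against the uninduced RNP-IPs, 0 were called higher or lower with the gene mean or at an adjusted p under 0.05. Those lower numbered 2 (Apaf1 and Cflar) under median centring, cyclic loess, the brightest probe sets alone or a variance trend, and 3 at a fold of at least 2. Leaving out arrays gave 0 to 2 in each direction. For the uninduced RNP-IPs against total RNA, 1 was higher under cyclic loess (Birc2) or with the brightest probe sets alone (Bcl2l11), 2 higher and 1 lower at a fold of at least 2, and 0 to 3 in each direction without single arrays. For the RNP-IPs labelled induced against total RNA, 4 were higher at a fold of at least 2, none higher without any single array, and 1 lower under cyclic loess or the gene mean (Bok), 0 at an adjusted p under 0.05, and 1 to 3 without single arrays.

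Same-numbered replicates deviated in opposite directions (correlation -0.50). This does not show whether same-numbered RNP-IPs were made together, and the main fits used no pairing. With the replicate block 1 gene was higher (Casp9) and 1 lower (Cflar), and with the crossed replicate block, which pairs arrays of like 5' Gapdh signal and was chosen after seeing the data, 1 higher and 2 lower (Apaf1 and Cflar).

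Among the genes with both induced arrays below all controls, differences turned to above 0 at these other probe sets, all but 1 under log2 5 on every array: Bcl2 0.13, Apaf1 0.37, Cflar 0.23 and 0.20, Tradd 0.037 and 0.029, and Xiap 0.28, 0.28, 0.22, 0.038 and, at the brighter of its other probe sets, 1.39. The Xiap gene mean was 0.17. The cause was not tested.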

Other observations

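The deposited values of both arrays labelled induced were identical to the last digit in 6401 probe sets, 14.2 percent of all, among them the brightest probe sets of Bbc3, Bmf, Casp8 and Aifm1. Between the uninduced RNP-IPs 5728 probe sets, 12.7 percent, were identical, and none of these was the brightest of an apoptosis gene.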
